A study of Mus musculus with 6 samples.

Results

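Ccl5, Cxcl9 and Cxcl10 were followed together with Ccl2, Ccl3, Ccl4, Ccl7, Ccl12, Cxcl1 and Cxcl2, which makes 10 chemokine genes, taken by symbol from a deposited table of 3733 genes. All 10 were present. The table comes from RNA sequencing of mouse hippocampus in 3 groups of 2 libraries each, called Control, PIA and PIA+IL-27. PIA abbreviates postnatal immune activation, words from the series title, which the design text gives as LPS, bacterial lipopolysaccharide, a stimulus of innate immunity sensed by Toll-like receptor 4. In the PIA+IL-27 group recombinant IL-27, a cytokine of myeloid cells, was given besides LPS. The labels give no strain, age, sex, dose, interval or carrier, and they do not say whether a library is 1 animal or a pool. The p-values thus rest on the spread between these libraries only. In the main test (edgeR) that spread was shared by all tested genes, so an SE or p-value does not measure the spread of its own gene.

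Chemokines are small secreted proteins that bind G protein-coupled receptors on leukocytes and direct their movement. Cxcl9 and Cxcl10 bind Cxcr3, a receptor of activated T cells and natural killer cells, and are classic targets of interferons. Ccl5 attracts T cells, monocytes and eosinophils. Ccl2, Ccl7 and Ccl12 bind Ccr2 and draw monocytes, Ccl3 and Ccl4 are macrophage inflammatory proteins, and Cxcl1 and Cxcl2 bind Cxcr2 and draw neutrophils. In brain exposed to LPS such genes are transcribed by microglia, astrocytes, endothelium and perivascular macrophages.

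The promoters of 3 of these genes are shown because they differ in the letters known as interferon and NF-kB elements. A RefSeq promoter table (GRCm38.p6) matched 6 of the 10 genes: Cxcl9, Cxcl10, Ccl3, Ccl12, Cxcl1 and Cxcl2. Each line holds the 250 bases before the start site, 5′ to 3′ on the strand of the gene, with every motif match in capitals.
Cxcl10, chr5:92348890-92349139, minus strand: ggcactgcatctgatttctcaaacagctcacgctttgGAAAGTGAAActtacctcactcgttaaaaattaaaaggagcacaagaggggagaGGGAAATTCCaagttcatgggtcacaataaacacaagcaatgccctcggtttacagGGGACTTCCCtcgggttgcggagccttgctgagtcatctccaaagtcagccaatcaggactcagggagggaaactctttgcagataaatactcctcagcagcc
Cxcl9, chr5:92328080-92328329, minus strand: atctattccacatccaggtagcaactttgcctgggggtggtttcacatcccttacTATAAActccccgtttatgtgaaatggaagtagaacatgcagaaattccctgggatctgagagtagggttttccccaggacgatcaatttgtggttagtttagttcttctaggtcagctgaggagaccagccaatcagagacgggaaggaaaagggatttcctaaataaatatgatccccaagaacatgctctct
Cxcl1, chr5:90890995-90891244, plus strand: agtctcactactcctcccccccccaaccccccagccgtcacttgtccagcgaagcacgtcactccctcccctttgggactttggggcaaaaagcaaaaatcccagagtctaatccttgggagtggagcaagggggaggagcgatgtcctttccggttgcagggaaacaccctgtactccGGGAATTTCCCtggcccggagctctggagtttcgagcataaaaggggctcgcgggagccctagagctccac
Searched on both strands were a paired core of the interferon-stimulated response element (GAAANNGAAA), the gamma-activated site (TTCNNNGAA), the NF-kB consensus and TATAAA. Cxcl10 held the interferon pair as GAAAGTGAAA from 213 to 204 bases before the start, and the NF-kB consensus at 159 to 150 (GGGAAATTCC) and at 103 to 94 bases (GGGACTTCCC). In Cxcl1 the NF-kB consensus matched on both strands at overlapping positions, 71 to 62 and 70 to 61 bases before the start, and Cxcl2 had the same letters at 97 to 88 and 96 to 87 bases. Cxcl9 held TATAAA only, at 195 to 190 bases, and Ccl12 held it at 31 to 26 bases. Of the 32851 promoter windows of this length, 2.98% held the interferon pair, 7.02% the gamma-activated site, 3.90% the NF-kB consensus and 12.4% TATAAA. Among the 6 matched chemokine genes these numbers were 1, 0, 3 and 2. A match describes letters and is no evidence of binding.

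The deposited table was selected on these same libraries: each gene in it reaches a log2 fold change of 1 in size, with a Q value no higher than 0.05, in 1 or more of the authors' 3 comparisons. In the authors' deposited table all 10 chemokine genes pass for PIA against Control and for PIA+IL-27 against PIA, and 4 pass for PIA+IL-27 against Control. Of all 3733 genes in it, 1957 pass for PIA against Control, 2974 for PIA+IL-27 against PIA and 815 for PIA+IL-27 against Control. Reads in the listed genes numbered 641672 to 1593441 per library, and 1 read was worth 0.952 to 1.09 normalized read counts (reads divided by the authors' factor for the library). The libraries also differed in other ways. The summed normalized reads of 4 Y-linked genes were 2.94 and 9.52 in the Control libraries, 541 and 594 in those of PIA, and 1476 and 6.80 with IL-27 added, and the groups Control and PIA differ wholly in this, so that the 2 differences cannot be told apart. The 15 listed choroid plexus genes summed to 661 and 66042 in the Control libraries, 12836 and 843 in those of PIA, and 1360 and 1526 with IL-27 added. PIA 1, the highest library for each chemokine gene, thus also held many choroid plexus reads, and their part in the results was not tested. The 5 listed neocortical markers summed to 2602 and 5947 in the PIA libraries and to 8698 and 1759 with IL-27 added. Of hippocampal markers, 3 of 7 for dentate granule cells were listed, with sums of 271 to 1842, and the pyramidal cell gene Fibcd1 had 214 to 1717. Both had reads in every library but at uneven levels. The dentate marker Prox1 had 96.0 in PIA 2 and 172 in PIA+IL-27 1, and 590 to 1358 in the others. Fibcd1 was lowest in the same libraries, at 506 and 214. Most of the dentate sum in PIA+IL-27 1 was Stxbp6, at 709. The part of this difference in the results was not tested.

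In both PIA libraries Ccl5, Cxcl9 and Cxcl10 had more reads than in every Control and every PIA+IL-27 library. With library 1 given before library 2, Ccl5 (gene ID 20304) had 49.95 and 0.952 normalized reads in the Control libraries, 271 and 60.0 in those of PIA, and 7.30 and 0 with IL-27 added. PIA 2 lay just above Control 1, and PIA 1 was far above all other libraries. Cxcl9 (gene ID 17329) had 9.79 and 1.90 in the Control libraries, 76.9 and 52.4 in those of PIA, and 3.13 and 0.971 with IL-27 added. Cxcl10 (gene ID 15945) had 39.2 and 2.86 in the Control libraries, 238 and 124 in those of PIA, and 7.30 and 7.77 with IL-27 added. For Cxcl9 and Cxcl10 a wide gap separated both PIA libraries from the rest. A level in whole tissue can be set by fewer cells of a type or by less RNA per cell, and these cannot be told apart. The 0 of Ccl5 in PIA+IL-27 2 allows up to 2.91 normalized reads (3 reads), which covers counting error only.

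**Figure D1:**
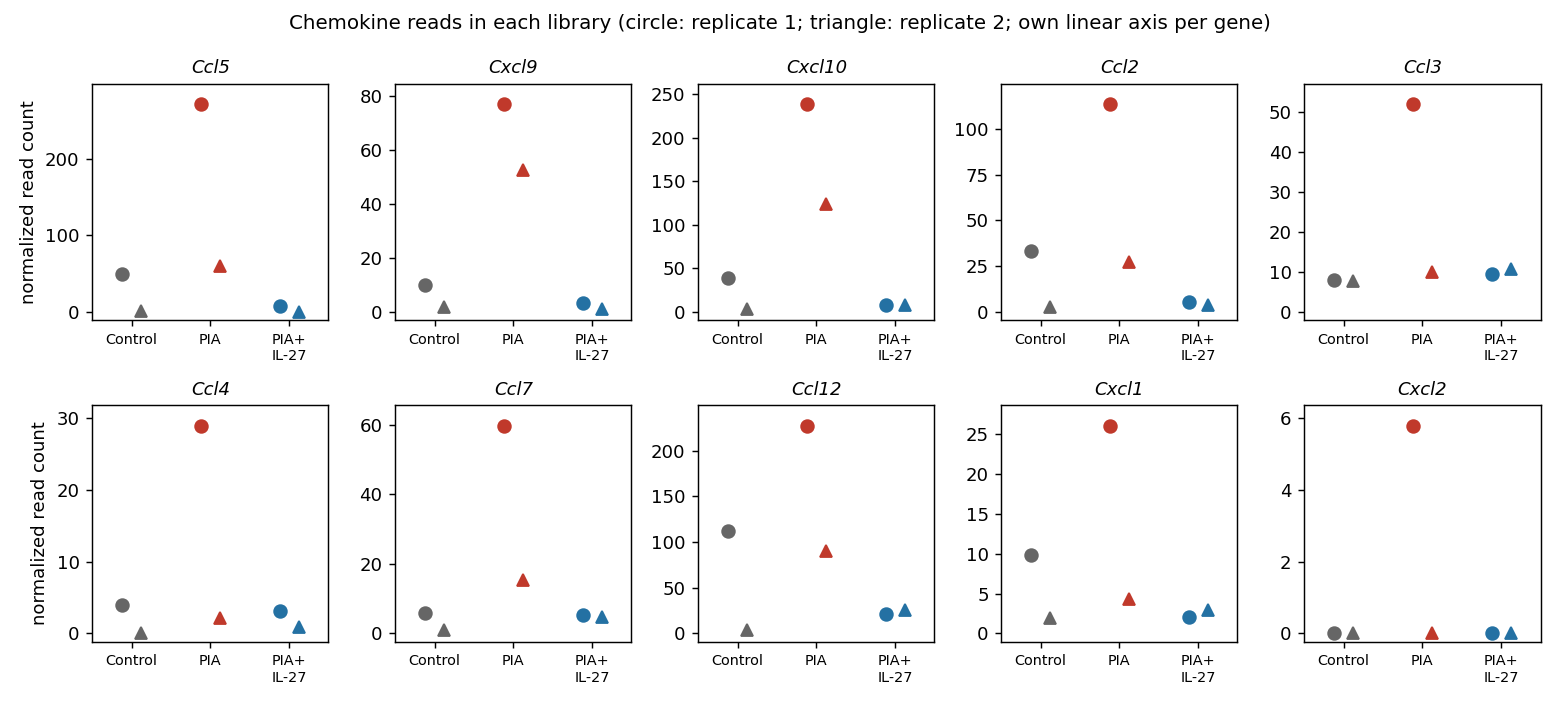
Normalized read counts (linear axis, separate for each gene) of the 10 chemokine genes in the 2 libraries of Control, PIA and PIA+IL-27, 1 point per library. PIA 1 is the highest library for all 10 genes, while PIA 2 stands clear of Control and PIA+IL-27 for Cxcl9 (52.4) and Cxcl10 (124) but lies below Control 1 for Ccl2, Ccl4, Ccl12 and Cxcl1.

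Of the monocyte-directed chemokines, Ccl2 and Ccl12 were high in PIA 1 and in Control 1, and Ccl7 in the PIA libraries. Ccl2 (gene ID 20296) had 33.3 and 2.86 normalized reads in the Control libraries, 113 and 27.3 in those of PIA, and 5.21 and 3.88 with IL-27 added. Ccl12 (gene ID 20293), a mouse relative of Ccl2, had 112 and 3.81 in the Control libraries, 227 and 90.6 in those of PIA, and 20.9 and 26.2 with IL-27 added. For both genes Control 1 exceeded PIA 2, so Control and PIA overlapped, while PIA+IL-27 stayed below both PIA libraries. Ccl7 (gene ID 20306) had 5.88 and 0.952 in the Control libraries, 59.6 and 15.3 in those of PIA, and 5.21 and 4.85 with IL-27 added, with PIA above the other groups.

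The macrophage inflammatory proteins Ccl3 and Ccl4 and the neutrophil-directed Cxcl1 and Cxcl2 were highest in PIA 1, far above PIA 2. Ccl3 (gene ID 20302) had 51.9 normalized reads in PIA 1 and 7.62 to 10.7 in the other libraries. Ccl4 (gene ID 20303) had 28.8 in PIA 1 and 0 to 3.92 in the others. Cxcl1 (gene ID 14825) had 25.9 in PIA 1, 9.79 in Control 1 and 1.90 to 4.36 in the others. For Cxcl2 (gene ID 20310) 5.77 normalized reads, from 6 reads, were counted in PIA 1 and 0 in every other library. Ccl4 and Cxcl2 had too few reads for the test and have levels only. A gene with few reads elsewhere could enter the test through PIA, so counts over the 8 tested genes are descriptions. In the authors' deposited table Cxcl2 nonetheless has 3.59 as its log2 fold change, with a Q value of 0.0343 for PIA against Control.

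Ccl12 and Ccl5 made up most of the chemokine transcripts in both PIA libraries, Control 1 and PIA+IL-27 1, and Ccl12 alone did so in PIA+IL-27 2, when levels were compared per length, as TPM, which corrects for transcript length and library depth. The 10 genes summed to 101 and 6.38 TPM in the Control libraries, 337 and 98.7 in those of PIA, and 22.5 and 19.5 with IL-27 added. The PIA 2 sum in TPM was thus no higher than that of Control 1. In summed normalized reads PIA 2 was the higher of these 2 libraries, at 386 against 271. Ccl5 was the most abundant of the 10 in PIA 1, with 133 TPM or 39.4% of the sum, and Ccl12 in the other 5 libraries, with 33.4 to 67.2%. Cxcl10 held 9.13% and 15.6% of the sum in PIA and 4.53 to 6.74% in the other libraries. Cxcl9 was a minor transcript, at 2.97 and 1.95 TPM in PIA and at most 0.37 TPM elsewhere. Ccl3 took 30.1% of the low sum in Control 2 and 9.91% and 12.7% with IL-27 added, but 3.34% and 2.07% in PIA 1 and PIA 2.

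**Figure D2:**
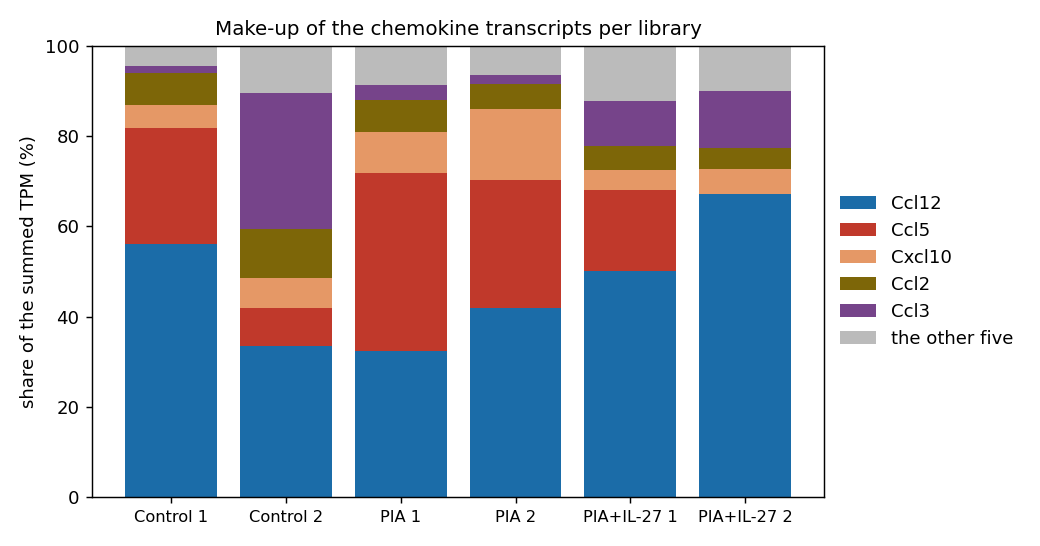
Share (%) of each gene in the summed TPM of the 10 chemokine genes, 1 bar per library. Ccl12 is the largest part except in PIA 1, where Ccl5 holds 39.4%, and Cxcl10 has its largest share, 15.6%, in PIA 2.

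In PIA against Control, which asks what immune activation changed, no chemokine gene passed the test. Cxcl9 had the largest log2 fold change, 3.44 ± 1.21 (SE, n = 2 libraries per group, edgeR adjusted p = 0.384). The value was 3.10 ± 1.04 for Cxcl10 (adjusted p = 0.279) and 2.70 ± 1.03 for Ccl5 (adjusted p = 0.483, edgeR). Ccl7 had 3.42 ± 1.29 (adjusted p = 0.483, edgeR), and the other 4 tested genes, Ccl3, Ccl2, Ccl12 and Cxcl1, had 1.37 to 1.98. All 8 tested genes had values above 0, as did 27.8% of the 3216 tested genes, whose median was -0.68 against 2.34 for the 8. The edgeR test called 0 of the 8 and 0.218% of all tested genes. At an unadjusted p under 0.05 there were 4 of the 8, beside 6.28% of all. DESeq2 called 0 of them, limma on log2(TPM + 1) called Ccl5, and limma on log2(TPM + 0.1) called Ccl5 and Cxcl10. PIA and Control did not overlap, with PIA the higher, for 5 of the 10 genes, Ccl5, Cxcl9, Cxcl10, Ccl3 and Ccl7, as for 15.3% of the tested genes. With a term for the Y-linked reads, which in this design rests on the 2 PIA+IL-27 libraries, the values were -3.20 for Ccl5, 1.87 for Cxcl9 and 3.19 for Cxcl10 (adjusted p = 0.977 for each, edgeR). Without PIA 1 the Cxcl1 value was -0.41. Leaving out each library in turn gave 1.23 to 7.27 for Ccl5, 2.71 to 4.996 for Cxcl9, 2.21 to 5.93 for Cxcl10 and 0.51 to 5.34 for Ccl12, each highest without Control 1.

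Ccl5 and Cxcl10 fell when IL-27 was added to PIA. The log2 fold change of Ccl5 in PIA+IL-27 against PIA was -5.48 ± 1.21, a 44.5-fold lower level (n = 2 per group, edgeR adjusted p = 0.00286). For Cxcl10 it was -4.57 ± 1.13, or 23.7-fold lower (adjusted p = 0.0174, edgeR). Both p-values use the spread shared by all tested genes. Their adjustment covers only genes that the authors had selected on these same libraries, not all expressed genes. Cxcl9, at -4.91 ± 1.34 or 30.1-fold, just missed the threshold (adjusted p = 0.0511, edgeR). Without a filter on low counts it passed, at an adjusted p of 0.0466 in edgeR. Both calls were lost without Control 1 (adjusted p = 0.0533 for each gene, edgeR), without Control 2 (0.0568), without PIA 1 (0.534, with log2 fold changes of -4.01 for Ccl5 and -4.02 for Cxcl10) and without PIA+IL-27 2 (0.559, with -4.48 and -4.61). Without PIA 2 the Ccl5 call held (-6.19, adjusted p = 0.0314, edgeR) and that of Cxcl10 did not (-4.96, adjusted p = 0.17). Without PIA+IL-27 1 the Cxcl10 call was lost as well (-4.52, adjusted p = 0.509, edgeR), while Ccl5 passed with no reads left in its group (adjusted p = 0.0461), where PIA was at least 56.8-fold higher against a floor of 3 reads in PIA+IL-27 2. Scaling to the listed genes (TMM) ended both calls, with larger changes of -6.67 and -5.74 (adjusted p = 0.279 and 0.27, edgeR). DESeq2 called Cxcl10 and gave Ccl5 -5.51 (adjusted p = 0.142). A term for the Y-linked reads ended both calls too, at -4.48 and -4.61. It leaves only PIA+IL-27 1 to set against PIA, as does the fit without PIA+IL-27 2, so it is no separate check. Both calls also ended with a term for PIA 2 with PIA+IL-27 1, the libraries with the most neocortical reads. The values were then -5.39 and -4.50 (adjusted p = 0.0823 and 0.101, edgeR).

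Of the other chemokine genes, none passed in PIA+IL-27 against PIA. The log2 fold change was -3.92 ± 1.21 for Ccl2 (adjusted p = 0.13, edgeR), -2.87 ± 1.24 for Ccl7 (0.257), -2.75 ± 1.02 for Ccl12 (0.246), -2.55 ± 1.36 for Cxcl1 (0.265) and -1.61 ± 1.17 for Ccl3 (0.325). The median of the 8 tested genes was -3.39 and all 8 lay below 0, whereas the median of all 3216 tested genes was 1.17 and 25.2% lay below 0. The call reached 2 of the 8, beside 0.435% of tested genes called in either direction and 0.373% called lower. An unadjusted p under 0.05 was reached by 6 of the 8 and by 18.7% of all. The groups were apart, with PIA+IL-27 the lower, for 7 of the 10 genes, all but Ccl3, Ccl4 and Cxcl2, beside 15.1% of tested genes. With TMM scaling the median of all genes was -0.04 and that of the 8 was -4.52. Without PIA 1 the Ccl3 value was 0.031.

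PIA+IL-27 and Control could not be placed in an order for any chemokine gene by the test. The log2 fold changes of PIA+IL-27 against Control were -2.78 ± 1.13 for Ccl5, -1.47 ± 1.31 for Cxcl9 and -1.46 ± 1.05 for Cxcl10 (n = 2 per group, adjusted p = 0.835 for each, edgeR). Ccl3 and Ccl7 had 0.37 and 0.55, which turned to -0.41 and -0.46 with TMM scaling. The edgeR test called 0 of the 8 tested genes, beside 0.311% of all, and 1 of them, Ccl5, had an unadjusted p under 0.05, as did 2.86% of all. Values below 0 were found for 6 of the 8 and for 26.7% of all. DESeq2 and both limma fits also called 0. Only Ccl3 had separate groups, with 9.38 and 10.7 normalized reads in PIA+IL-27 above 7.84 and 7.62 in Control, beside 23.2% of tested genes higher in this way. These signs rested on Control 1, since without it the values of Ccl5, Cxcl9 and Cxcl10 were 1.79, 0.086 and 1.36. The comparisons share libraries, so the changes in one are not independent of those in another.

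**Figure D3:**
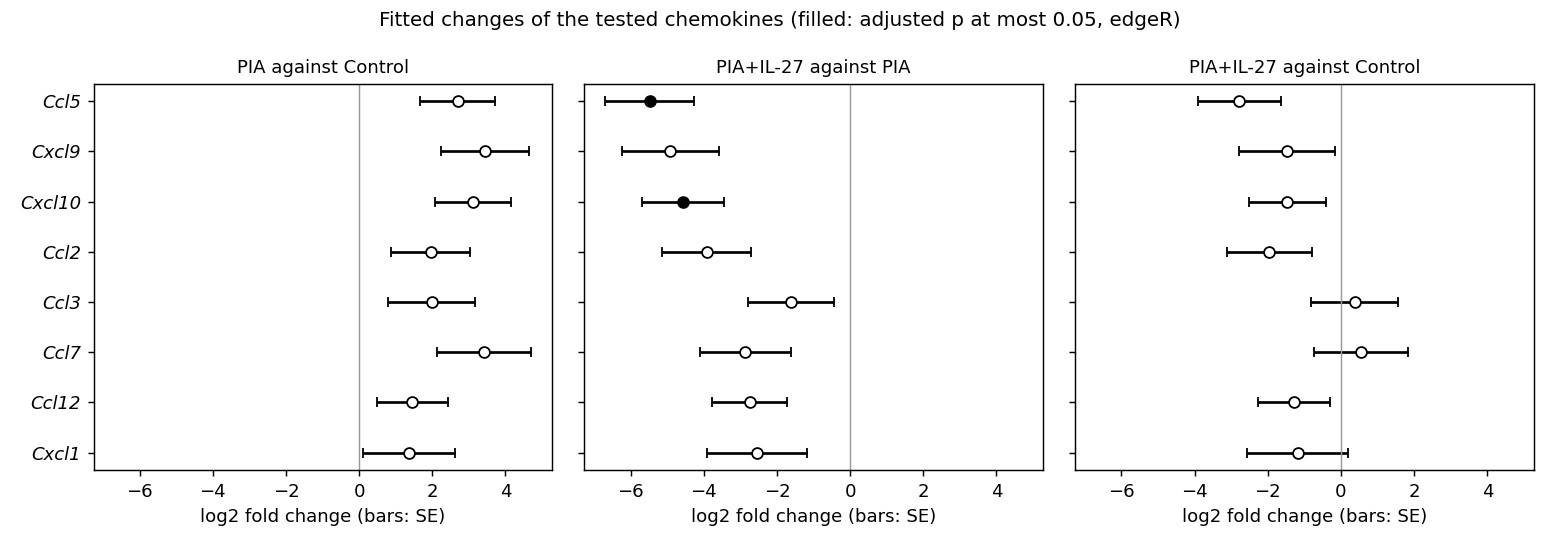
Log2 fold changes (points) with standard errors (bars) of the 8 tested chemokine genes in the 3 comparisons, edgeR. The filled points, Ccl5 at -5.48 and Cxcl10 at -4.57 in PIA+IL-27 against PIA, are the ones that passed at an adjusted p of 0.05.

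Among the 9 genes with reads in both PIA libraries, these differed least in Cxcl9 and most in Ccl4. PIA 1 had 1.47 times the normalized reads of PIA 2 for Cxcl9 (95% exact binomial interval 1.01 to 2.15) and 1.92 times for Cxcl10 (1.53 to 2.41). The ratio was 2.504 for Ccl12 (1.94 to 3.26), 3.90 for Ccl7 (2.16 to 7.54), 4.16 for Ccl2 (2.68 to 6.68) and 4.52 for Ccl5 (3.37 to 6.14). It was 5.28 for Ccl3, 5.94 for Cxcl1 and 13.2 for Ccl4, where only 2 reads in PIA 2 left an interval of 3.35 to 114. These intervals cover counting error only. The intervals of Cxcl9 and Cxcl10 lay wholly below that of Ccl5.

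**Figure D4:**
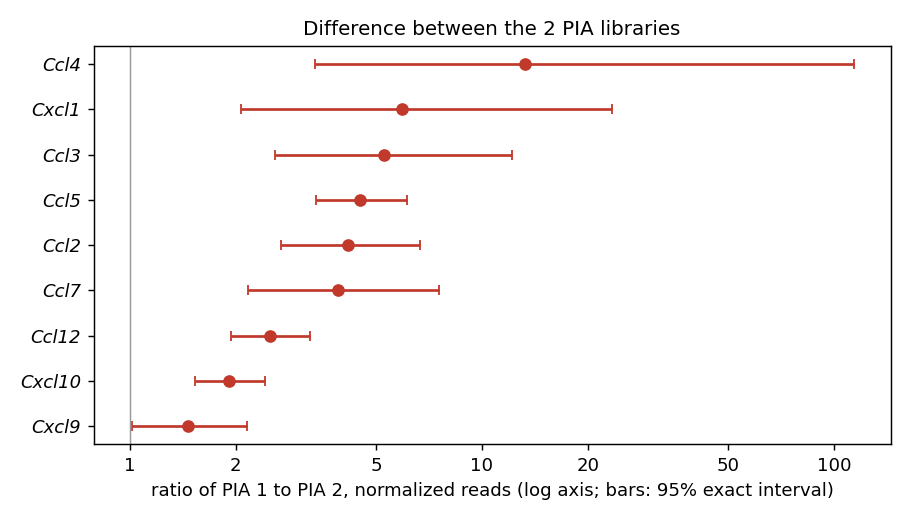
Ratio of PIA 1 to PIA 2 in normalized reads (log axis) with 95% exact intervals for counting error, for the 9 chemokine genes with reads in both libraries. Cxcl9 (1.47) and Cxcl10 (1.92) are nearest to 1, and Ccl4 (13.2) is farthest.

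Several genes differed more between the Control libraries. Control 1 had 52.5 times the normalized reads of Control 2 for Ccl5, where Control 2 held 1 read (95% exact interval 9.002 to 2112), 29.3 times for Ccl12 (11.1 to 109) and 13.7 times for Cxcl10 (4.37 to 69.3). Ccl3 did not follow, with 8 reads in each Control library and a ratio of 1.03 (0.337 to 3.14). In PIA+IL-27 the libraries were close for Cxcl10 (7 and 8 reads) and Ccl7 (5 and 5 reads), and they differed by 7 to 0 reads for Ccl5.

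Some markers of other cells had an order of libraries like that of these genes, and others did not. For neutrophils and monocytes 11 of 13 marker genes were listed, and they summed to 846 and 204 normalized reads in the Control libraries, 2458 and 412 in those of PIA, and 319 and 183 with IL-27 added. PIA 1 was highest and Control 1 second, as for Cxcl1. S100a8, a calcium-binding protein of neutrophils, fell in PIA+IL-27 against PIA (log2 fold change -3.92 ± 1.05, edgeR adjusted p = 0.043). This was 1 call among the 9 tested markers, beside 0.373% of tested genes called lower. Its groups overlapped, with 598 normalized reads in PIA 1 but 19.6 in PIA 2, next to 26.1 and 14.6 with IL-27 added. Ly6g, a defining marker of neutrophils, was at 0 in PIA 2 and in both PIA+IL-27 libraries. For T and natural killer cells 7 of 14 genes were listed, and the sums were 22.5 and 9.52 in the Control libraries, 92.2 and 34.9 in those of PIA, and 12.5 and 4.85 with IL-27 added. Both PIA libraries were above all others here, as for the Cxcr3 ligands, but at low levels. Perforin (Prf1) had 8.65 and 3.27 in PIA and 0 in all other libraries, and Cd8a was at 0 in PIA 1 and Control 1. The 5 listed of 14 microglial markers summed to 1435 and 966 in the Control libraries, 1435 and 2901 in those of PIA, and 1693 and 988 with IL-27 added, with PIA 2 the highest, whereas PIA 1 was highest for each chemokine gene. Most of this sum was the complement genes C1qa and C1qb, which other macrophages also express. P2ry12, Siglech and Gpr34, markers of resting microglia, had values in the other direction, with log2 fold changes of -1.90, -0.74 and -1.08 in PIA against Control (smallest adjusted p = 0.617, edgeR). In PIA+IL-27 against PIA they had 2.74, 1.49 and 2.07 (smallest adjusted p = 0.233, edgeR). The median of all 3216 tested genes had the same signs, at -0.68 in PIA against Control and 1.17 in PIA+IL-27 against PIA. P2ry12 had 14.7 and 232 normalized reads in the Control libraries, 9.61 and 56.7 in those of PIA, and 258 and 184 with IL-27 added. Gfap, Aqp4 and S100b, the 3 listed of 7 astrocyte markers, summed to 14462 and 7741, 19026 and 6594, and 6032 and 6769 in the same order of groups. Nearly all of this was Gfap, with a log2 fold change of -1.44 in PIA+IL-27 against PIA. Aqp4 and S100b had 1.31 and 0.96 (smallest adjusted p of the 3 0.265, edgeR), near the median of 1.17 for all tested genes. The part of these cells in the chemokine levels was not tested.

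**Figure D5:**
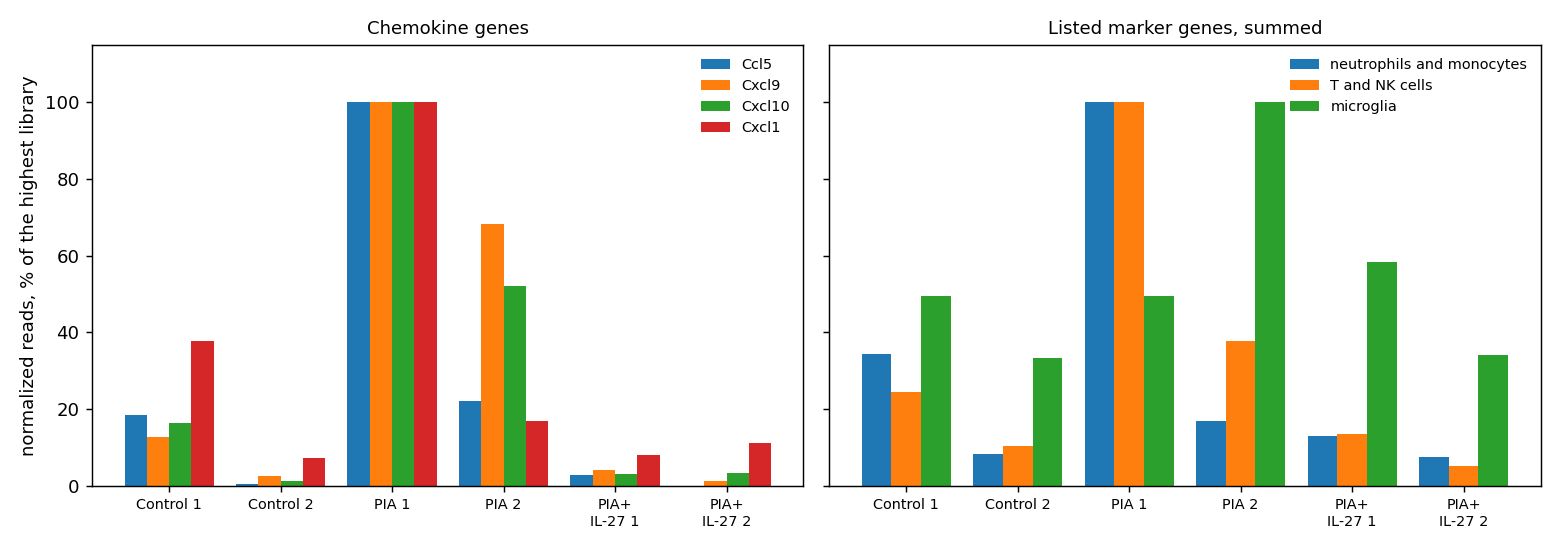
Normalized reads of 4 chemokine genes (left) and summed normalized reads of listed marker genes (right) in each library, as % of the highest library. In PIA 2, Cxcl9 (68.1%) and Cxcl10 (52.2%) are high while Cxcl1 (16.8%) and the neutrophil and monocyte markers (16.8%) are low, and the microglial sum, mostly C1qa and C1qb, peaks.

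Of 26 other chemokine genes 11 were listed and 7 tested, and the smallest adjusted p in PIA+IL-27 against PIA was 0.257 (edgeR), with 3 of the 7 at an unadjusted p under 0.05, beside 18.7% of all tested genes. Their median log2 fold change was 1.42 in PIA against Control and -1.73 in PIA+IL-27 against PIA. Cxcl13, which attracts B cells, had 17.6 and 0 normalized reads in the Control libraries, 66.3 and 15.3 in those of PIA, and 10.4 and 0 with IL-27 added (log2 fold change -2.96 ± 1.23 against PIA, edgeR adjusted p = 0.257). Cxcl16, the ligand of Cxcr6, had 58.8 and 24.8, then 141 and 121, then 45.9 and 9.71 in the same order of groups (-2.23 ± 1.01, adjusted p = 0.257, edgeR), and like Cxcl9 its PIA libraries were close to each other. Ccl6 had 94.0 and 23.8, 170 and 22.9, and 17.7 and 24.3 (-2.19 ± 1.02, adjusted p = 0.258, edgeR), with PIA 1 highest, Control 1 second and PIA 2 no higher than Control 2. Of 23 chemokine receptor genes 2 were listed. Cxcr2, the receptor of Cxcl1 and Cxcl2, had 83.6 normalized reads in PIA 1 and 1.90 to 8.82 in the other libraries, so that PIA 1 was far above the rest, as for Cxcl1 and Cxcl2. Ccrl2, which binds chemerin without signalling, had 33.6 in PIA 1 and 5.83 to 17.6 elsewhere (-1.28 ± 1.18, adjusted p = 0.364, edgeR). Cxcr3, Ccr1 and Ccr2 are outside the table and were not analysed here.

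Of the routes known to induce chemokine genes, a minority of members was listed. Of 20 genes of the interferon route 8 were listed and tested, with a smallest adjusted p of 0.231 (edgeR) and 3 of the 8 at an unadjusted p under 0.05 in PIA+IL-27 against PIA, beside 18.7% of all tested genes. Their median was 1.30 in PIA against Control and -1.32 in PIA+IL-27 against PIA. Irf1, a transcription factor induced by interferon gamma, had 198 and 84.7 normalized reads in the Control libraries, 307 and 847 in those of PIA, and 149 and 113 with IL-27 added (-2.14 ± 0.908 against PIA, edgeR adjusted p = 0.257). Nlrc5, which switches on MHC class I genes, had -2.81 ± 1.01 (adjusted p = 0.231, edgeR), and both genes were highest in PIA 2, where Cxcl9 and Cxcl10 were second. Socs3, a feedback inhibitor of cytokine signalling, had -2.12 ± 0.959 (adjusted p = 0.257, edgeR).

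Of 23 genes of the LPS receptor and NF-kB route 5 were listed and tested, with a smallest adjusted p of 0.257 (edgeR) and 2 of the 5 at an unadjusted p under 0.05 in PIA+IL-27 against PIA, beside 18.7% of all tested genes. All 5 had separate groups with PIA+IL-27 the lower, beside 15.1% of tested genes. Irak3, an inhibitor of Toll-like receptor signalling, had -2.99 ± 1.13 (adjusted p = 0.257, edgeR), Cd14, the LPS co-receptor, -1.88 ± 0.955 (0.264), and Lbp, the LPS-binding protein, -1.68 ± 0.905 (0.265). Of 12 partner cytokine and IL-27 genes 4 were listed and 3 tested. Tnf had 11.8 and 0.952 normalized reads in the Control libraries, 49.97 and 21.8 in those of PIA, and 4.17 and 3.88 with IL-27 added (-3.12 ± 1.27, adjusted p = 0.257, edgeR), the same order of groups as Cxcl10. Il1b was highest in PIA 1, with 72.1, followed by 18.6 in Control 1 and 7.64 in PIA 2 (-3.28 ± 1.25, adjusted p = 0.257, edgeR). The IL-27 subunit Ebi3 had -0.86 ± 0.958 (adjusted p = 0.431, edgeR), and the other subunit gene, Il27, had 7.64 normalized reads in PIA 2, 2.88 in PIA 1 and at most 1.04 elsewhere. Of 9 adhesion molecule genes 6 were listed and 5 tested, with a smallest adjusted p of 0.257 (edgeR) and 3 of the 5 at an unadjusted p under 0.05 in PIA+IL-27 against PIA, beside 18.7% of all. Itgal, the alpha chain of the leukocyte integrin LFA-1, had -2.48 ± 0.991, its partner Itgb2 -2.00 ± 0.95, and their ligand Icam1 -1.94 ± 0.921 (adjusted p = 0.257 to 0.258, edgeR). Itga4, the alpha chain of the integrin VLA-4, had a value above 0, at 1.65 ± 0.956 (adjusted p = 0.281, edgeR), where the median of all tested genes was 1.17.

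The 5 genes most like Ccl5, Cxcl9 and Cxcl10 over the 6 libraries had no gene in common. Likeness was taken as the Pearson correlation of log2(TPM + 0.1) among the tested genes and is a description of 6 points that share their groups. For Ccl5 the 5 closest were Tmem176a, Itgb2, Vav1, Tagln and Zc3h12a, with r of 0.993 to 0.995. For Cxcl9 they were Osm, Dok3, Tapbp, Serpina3i and Myd88, with r of 0.974 to 0.985. For Cxcl10 they were Gbp2, Serpina3g, Tnf, Slamf9 and Siglec1, with r of 0.983 to 0.999. Gbp2, an interferon-induced GTPase gene, followed Cxcl10 with 9.25 and 2.22 TPM in the Control libraries, 27.6 and 18.9 in those of PIA, and 3.93 and 4.24 with IL-27 added. Cxcl9 was number 23 in likeness to Cxcl10 (r = 0.960), and Ccl5 was number 135 (r = 0.859). The added 0.1 weighs on these values, since Ccl5 had 0 TPM in PIA+IL-27 2 and Cxcl9 at most 0.37 TPM outside PIA. The 5 genes closest to Ccl5 were all lowest in PIA+IL-27 2.

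Neighbours on the chromosome did not share 1 pattern. In the RefSeq gene table Cxcl9 and Cxcl10 lie on chromosome 5 with 1 coding gene, Art3, between them, and both stood high in PIA 1 and PIA 2. Cxcl1 and Cxcl2 are next to each other on the same chromosome and were highest in PIA 1, with PIA 2 below Control 1 or at 0. On chromosome 11 Ccl3 is followed by Ccl4, both high in PIA 1 alone, while Ccl2 is followed by Ccl7, of which the first overlapped between Control and PIA and the second did not. Ccl5 is followed there by Ccl9, which had 112 and 54.3 normalized reads in the Control libraries, 209 and 43.6 in those of PIA, and 29.2 and 46.6 with IL-27 added, so that its groups overlapped where those of Ccl5 in PIA and PIA+IL-27 did not.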

How the data were processed

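Total RNA from hippocampus was sequenced in 6 libraries. Per the file headers, the deposited table gives for each gene and library an estimated read count (expected count), a normalized read count and TPM. The normalized read count is a signal that is the authors' count after rounding up and division by a library factor (0.917 to 1.05), which held for 100.0% of values within 1e-06. The authors' log2 fold changes and Q values (adjusted p-values) are in the same deposited table; the test, aligner and build behind them were not given in the sources used here.

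The quasi-likelihood test of edgeR 4.0.16 in R 4.3.3 was applied to rounded counts, with all libraries in 1 fit, the authors' library factors, filterByExpr by group (3216 genes, 8 of the 10 chemokine genes) and Benjamini-Hochberg adjustment over all tested genes at 0.05. The biological coefficient of variation was 0.597, and the prior degrees of freedom were infinite, so that a common spread replaced that of the single gene. The chemokine genes, lists and alternatives were chosen with earlier results of these data known. Genes of the lists were named where they passed, or else up to 3 with the smallest unadjusted p in PIA+IL-27 against PIA. Il27, Cxcr2, Ccl8, Ccl9, Ccl17, Ccl19, Ccl28 and the marker genes were named after their values were seen. Alternatives were no filter, scaling by TMM or by median ratios, a block for the replicate number, a fit of the compared groups alone, each library left out, DESeq2 1.42.0, limma 3.58.1 on log2 TPM with 1 or 0.1 added, a robust spread, and terms for Y-linked reads and for PIA 2 with PIA+IL-27 1. Of the gene identifiers 3702 were found in the RefSeq gene table.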

Additional observations from a re-analysis of the deposited data

How the results depend on the processing

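Ccl5 and Cxcl10 kept their direction in PIA+IL-27 against PIA in all 17 alternatives, and Ccl5 stayed past the threshold in 8 and Cxcl10 in 6 of them (adjusted p 2.09e-08 to 0.559 and 0.00538 to 0.559). Cxcl9 passed in 4 (0.0123 to 0.559). The term for Y-linked reads and the fit without PIA+IL-27 2 gave the same values for Ccl5 and Cxcl10 here, so they are not separate checks. The cause of these changes was not tested. edgeR called 7 genes in PIA against Control, 14 in PIA+IL-27 against PIA and 10 in PIA+IL-27 against Control, and 0, 2 and 0 chemokine genes. With TMM factors 0, 0 and 0 genes were called and 0 chemokine genes in PIA+IL-27 against PIA, where Ccl5 had -6.67 and Cxcl10 -5.74, while Ccl3 and Ccl7 had -0.41 and -0.46 against Control. Median-of-ratios factors gave 0, 0 and 0 genes, 0 chemokine genes, and -6.60, -5.71, -0.39 and -0.44 for the same values. These factors come from the listed genes, whose median log2 fold changes of -0.68, 1.17 and 0.55 became 0.00, -0.04 and -0.02 with TMM. Without the filter Cxcl9 had -4.91 in PIA+IL-27 against PIA and passed, and with only the libraries of the compared groups it had -4.91 and passed as well. That fit called 449 of the 3006 genes it tested in PIA+IL-27 against PIA. Among them were 5 of the 7 chemokine genes tested there (Ccl5, Cxcl9, Cxcl10, Ccl2 and Ccl12). It called 1 gene in PIA+IL-27 against Control. The labels do not say whether the replicate numbers pair the libraries. Deviations of same-numbered libraries correlated at 0.18, 0.06 and -0.23, which cannot settle it, since each group gives a single deviation per gene. With the replicate block 3, 4 and 3 genes were called and 1 chemokine gene, Ccl5, in PIA+IL-27 against PIA, where Cxcl10 had -4.40. DESeq2 called 2, 4 and 1 genes and 1 chemokine gene, Cxcl10, in PIA+IL-27 against PIA, where Ccl5 had -5.51. With limma on log2(TPM + 1), 1 chemokine gene was called in PIA against Control (Ccl5, 3.28), Cxcl9 passed at -1.66 in PIA+IL-27 against PIA, and 2 genes were called in PIA+IL-27 against Control. With limma on log2(TPM + 0.1), 12 genes and 2 chemokine genes were called in PIA against Control (Ccl5 3.91, Cxcl10 3.73), Cxcl9 passed at -3.81, 5 genes were called in PIA+IL-27 against Control, and Ccl12 had 0.12 there. A robust spread called 4 genes in PIA against Control and 8 in PIA+IL-27 against PIA. With the term for Y-linked reads Ccl5 had -3.20 in PIA against Control, 4 genes and 0 chemokine genes were called in PIA+IL-27 against PIA (Ccl5 -4.48, Cxcl10 -4.61) and 1 gene in PIA+IL-27 against Control. Under a term shared by PIA 2 and PIA+IL-27 1 these numbers were 2 genes and 0 chemokine genes (Ccl5 -5.39, Cxcl10 -4.50) and 3 genes.

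Leaving out each library in turn gave 0 to 7 genes called in each comparison and 0 to 1 chemokine genes in PIA+IL-27 against PIA. There Ccl5 ranged from -10.39 to -4.01 and Cxcl10 from -4.96 to -4.02, and Ccl3 from -2.36 to 0.031. In PIA against Control Cxcl1 ranged from -0.41 to 2.92. In PIA+IL-27 against Control the ranges were -7.69 to 1.79 for Ccl5, -2.44 to 0.086 for Cxcl9, -2.36 to 1.36 for Cxcl10, -2.84 to 0.65 for Ccl2, -2.24 to 2.59 for Ccl12, -1.91 to 0.37 for Cxcl1 and -0.22 to 2.26 for Ccl7. A lone library was assumed to vary like the others. Depth limits the low genes: Ccl4 and Cxcl2 had at most 30 and 6 reads, and with 2 libraries per group no value has a replicate check beyond 1 pair.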
